A study of Curcuma longa with 2 samples.

Results

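miR159 is a plant microRNA family, and here it was followed through the small RNA of nanoparticles prepared from turmeric (Curcuma longa) root. Its members were taken as the listed sequences whose names hold miR159 or MIR159, with reads summed over lines of the same sequence and a sequence first named for another family left out. This gave 7 of the 186 distinct sequences of the deposited table, all 7 with reads in at least 1 library. They stood on 11 lines. A further sequence, named first for miR319 and then for miR159, is described beside the family and is not a member.

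Both samples are turmeric nanoparticles, labelled as turmeric ELN and called library 1 and library 2. They form 1 group with no treatment and no control, so the values describe what was listed and no condition was compared. The total RNA taken from each was made into small RNA libraries and sequenced. Over the entries used here the table lists 96386 reads for library 1 and 72196 for library 2. These are totals of a miRNA list and not the sequencing depth. Whether the samples are separate preparations is not in the labels, so an SD over them may measure technical spread alone. Cargo of the particles and RNA carried along in their isolation cannot be told apart.

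As background, miR159 guides cleavage of transcripts of GAMYB-type MYB transcription factor genes. These factors act downstream of gibberellin in the cereal aleurone and in anthers, and in Arabidopsis the family keeps MYB33 and MYB65 silent in vegetative tissue. The mature miRNA comes from the 3′ arm of a long hairpin. miR319 is a sister family with a closely related sequence that acts mainly on TCP genes. In Arabidopsis the hairpins of both families are cut stepwise from the loop towards the base, and small RNAs other than the mature one are released on the way.

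The forms are shown first because the family is described by them. Each is written 5′ to 3′ as in the table, with T for U and with the seed, bases 2 to 8, in capitals. The 3 forms of the 3′ arm share 1 seed, and it stood in no other listed sequence with reads.
leading form: tTTGGATTgaagggagctccc
asparagus form, named for rice miR159f with C1T and identical to the registered miRNA of Asparagus officinalis: tTTGGATTgaagggagctcta
20-nt form: tTTGGATTgaagggagctct
The 2 inner forms, which lie inside the hairpin before the mature miRNA, share another seed.
peach-type inner form: cTTGCATAactcaggagctgc
papaya-type inner form: tTTGCATAactcaggagctgc
The remaining members each have a seed of their own.
5′-arm form, the strand opposite the mature miRNA: gAGCTCCTtgaagtccaaatg
csi-miR159b-5p, named after an entry of sweet orange: aGCTGCCGactcattcattca
The form with names of both families carries a seed that 4 listed sequences share, all of them first named miR319.
double-named form: tTTGGACTgaagggagctcta

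The leading form made up nearly the whole family. With the reads of every sequence summed over its lines, it had 13176 reads in library 1 and 9922 in library 2. By these sums it ranked first of all listed sequences in both. Its share of the family was 94.9% in library 1 and 94.8% in library 2, or 94.8% ± 0.041 (SD, n = 2). Both libraries therefore lie within a narrow range for this form. Set against all listed reads, the family held 14.4% in library 1 (95% Clopper-Pearson interval 14.2% to 14.6%) and 14.5% in library 2 (14.2% to 14.8%). These and all intervals below cover counting error only. The remaining 6 members summed to 714 and 544 reads, or 0.741% and 0.754% of the listed reads.

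The leading form is not identical to a registered sequence quoted in the table. Counted from 1 at the 5′ end, it carries T20C and G21C relative to rice miR159a.1, and A1T and G21C relative to rice miR159d. These changes lie at its ends, and the bases between them are those of both rice entries. At both loci where the table places it, the form is identical to the genomic sequence. One locus spans 63 nt on the plus strand (WXZB01282026.1:4-66) and the other 31 nt on the minus strand (WXZB01075556.1:217232232-217232262), on contigs of an assembly that is not named in the sources used here. No gene annotation of these contigs was used.

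The asparagus form is the next most abundant member, and its label does not mark it as particular to that species. It also stands without a mismatch in the quoted hairpins of papaya, peach, apple and soybean, at a registered miRNA in each. It differs from the leading form by C20T and C21A alone, with 454 reads in library 1 against 351.5 in library 2, or 0.479% ± 0.011 of listed reads (SD, n = 2). With its 2 lines summed, the leading form exceeded the asparagus form 29.0-fold in library 1 and 28.2-fold in library 2. On a single line the leading form had 6588 and 4961 reads, and the asparagus form has 1 line only. The 20-nt form is named for rice miR159a.1 without its last base. It is equally the asparagus form without its last base, and had 55 and 30.5 reads. The values of the asparagus and 20-nt forms are fractional in library 2, where they sum to 382, and they sum to 509 in library 1. Whether the table divided reads between them was not tested. The 3 forms of the 3′ arm together held 98.5% ± 0.051 of the family (SD, n = 2).

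**Figure D1:**
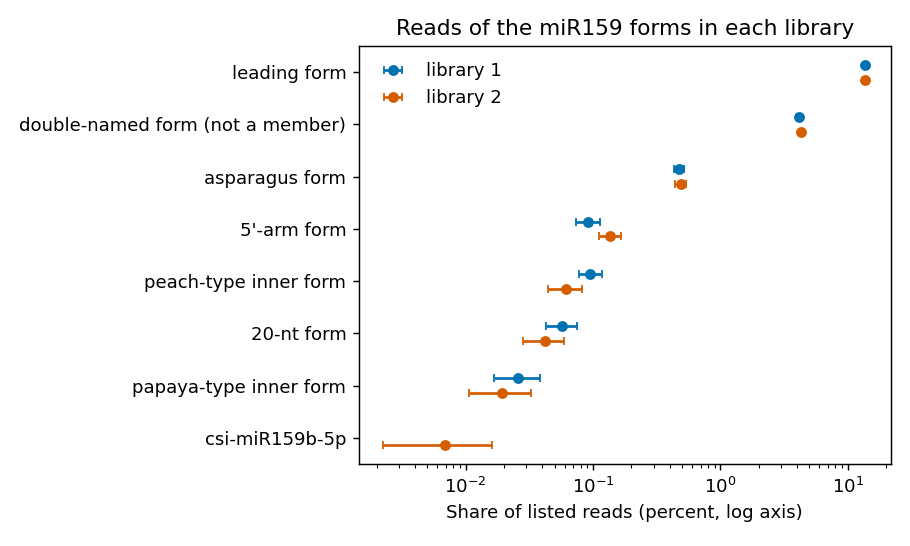
Share of listed reads of each form in library 1 and library 2, on a log axis, with exact 95% Clopper-Pearson intervals that cover counting error only. The leading form stands at 13.7% in both libraries, and csi-miR159b-5p, listed at 0 in library 1, has a point for library 2 alone.

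By their names and the quoted registered hairpins that hold them, the 5′-arm and inner forms lie elsewhere on a MIR159 hairpin. csi-miR159b-5p has a place only on its own registered hairpin, which holds no 3′-arm or inner form within 3 mismatches. Its loci quote mostly MIR319 hairpins, as does the 115-nt locus of the peach-type inner form. The 5′-arm form, named after soybean miR159a-5p with T19A, had 88 reads in library 1 and 99 in library 2. For each of its reads the 3′-arm forms had 156 in library 1 and 104 in the other. No listed locus holds the 5′-arm form together with a 3′-arm form, so these ratios do not compare the arms of 1 hairpin. The peach-type inner form had 92 and 44 reads and the papaya-type inner form 25 and 14. Unlike the 5′-arm form, both had fewer reads in library 2, the library with the lower total. They differ from each other by C1T and, per the table's notation, from the hairpins of peach, apple and papaya by T9A, on stretches with no registered miRNA. csi-miR159b-5p was listed at 0 in library 1 and had 5 reads in library 2. Since the smallest value above 0 in the table was 2.5 reads, a value of 0 may lie under a minimum of the list.

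By mean share, with reads summed over lines, the order was the leading form, the asparagus form, the 5′-arm form, the peach-type inner form, the 20-nt form, the papaya-type inner form and csi-miR159b-5p. With a single line per sequence the peach-type inner form has 46 and 22 reads, below the 55 and 30.5 of the 20-nt form. Neighbours were called ordered where the log2 ratio of their shares was positive in each library and its mean was larger than its SD. This rule leaves out counting error. The 5′-arm and peach-type inner forms were not ordered, with a mean log2 ratio of 0.55 ± 0.87 (SD, n = 2). For the 20-nt over the papaya-type inner form it was 1.13 ± 0.01 (SD, n = 2). This ratio rests on 55 against 25 reads in library 1 and 30.5 against 14 in library 2. Its small SD is therefore no measure of precision. csi-miR159b-5p was lower than its neighbour in both libraries, but has no ratio because of its value of 0.

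Members that start with T, read as U in RNA, held 98.6% ± 0.084 of the family's reads, and those of 21 nt held 99.7% ± 0.074 (SD, n = 2 each). Of the 7 members, 6 are 21 nt long and 4 start with T. A first U is typical of miRNAs loaded into AGO1, the main effector of plant miRNAs. The peach-type inner form starts with C, the 5′-arm form with G and csi-miR159b-5p with A.

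The hairpins give the arms. The members lie on 9 loci of 7 contigs, and all 11 lines are identical to the genomic sequence of their locus. The spans run from 31 to 186 nt, and 5 of the 9 are under 70 nt, while the registered MIR159 hairpins quoted for these lines are 150 to 272 nt long. The longest is a whole foldback on the minus strand (WXZB01262466.1:1-186). The deposited free energy was -90.6 kcal/mol for this locus and between -50.4 and -9.5 kcal/mol for the other 8. The legend gives a limit of -15 kcal/mol for hairpins, which 6 of the 9 loci reach, and does not say whether it applies to registered names. The legend also leaves unexplained the class of line (gp2b) under which all members stand.

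The longest locus is shown because it places the inner and the mature form on 1 strand. The capitals mark the peach-type inner form at bases 121 to 141 and the asparagus form at bases 163 to 183.
long hairpin: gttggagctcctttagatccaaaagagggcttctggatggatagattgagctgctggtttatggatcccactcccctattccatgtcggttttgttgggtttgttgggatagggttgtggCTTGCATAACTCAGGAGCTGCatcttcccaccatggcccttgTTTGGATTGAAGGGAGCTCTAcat
In the deposited structure, 19 of the 21 bases of the asparagus form pair with bases between 3 and 23, at the 5′ end. The inner form pairs through 12 bases with a stretch between bases 49 and 63. The 5′-arm form did not match this hairpin within 3 mismatches. The table lists it on another contig, at a locus of 34 nt.

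The inner and mature forms kept a fixed distance. In all 4 of the listed loci that hold both, 21 bases lie between the end of the inner form and the start of the 3′-arm form, so that their starts are 42 bases apart. The papaya-type inner form precedes the 20-nt form at 1 locus and the leading form at another. The peach-type inner form precedes the asparagus sequence in the long hairpin and the double-named form at a locus of 115 nt. Of the 9 registered hairpins named MIR159 that the table quotes for these lines, 5 hold both forms within 3 mismatches, and the gap there was 21 bases in 3 and up to 23 in the others. The distance is a property of the hairpins and not of the read numbers.

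**Figure D2:**
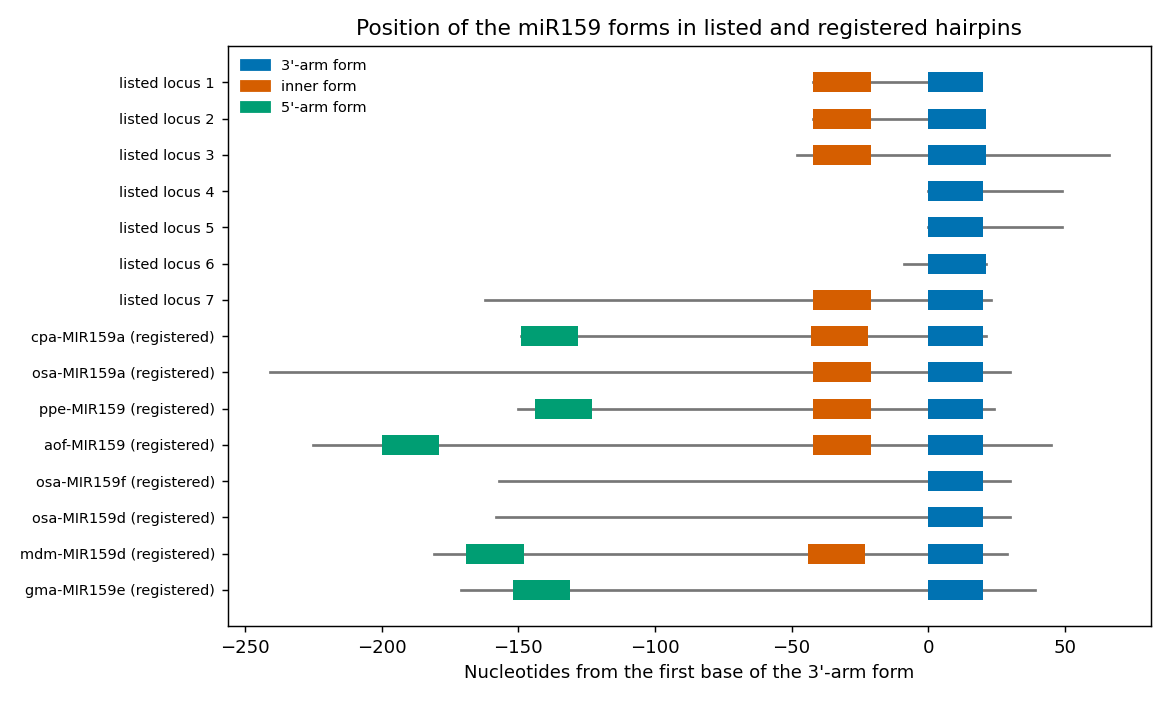
Position of the 3′-arm, inner and 5′-arm forms (matches within 3 mismatches) in 7 listed loci and in 8 registered hairpins, in nucleotides from the first base of the 3′-arm form; grey lines are the hairpins. Every listed locus with an inner form has it 42 bases before the 3′-arm form. The loci of csi-miR159b-5p and of the 5′-arm form, and the hairpin csi-MIR159b, are not drawn.

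The arm given by the table follows the excerpt and not the hairpin. In the quoted registered hairpins the 3′-arm forms are centred between 86.0% and 93.6% of the hairpin's length, the inner forms between 68.0% and 77.2%, and the 5′-arm form between 6.43% and 14.2%. The table nevertheless gives the asparagus form the 5′ arm, on a locus of 50 nt that begins with it. It gives the peach-type inner form the 5′ arm at 1 locus and the 3′ arm at the other. The leading form stands on the 3′ arm on both of its lines. Of the registered hairpins, 8 hold the leading form within 3 mismatches, all 8 with a registered miRNA there. Rice MIR159a is the 1 hairpin with a registered miRNA at the place of the peach-type inner form, which differs from it by G8A, C9A and C11T, counted along the form.

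The loci differ in the families of the registered hairpins quoted for them. csi-miR159b-5p is identical to its registered name, but its 2 loci quote 12 and 5 MIR159 hairpins against 88 and 89 of MIR319, and their 3′ side carries a sequence named miR319. The 115-nt locus of the peach-type inner form is alike, with 12 MIR159 and 89 MIR319 hairpins and the double-named form, there under its miR319 name, on the 3′ side. The other locus of that inner form, the long hairpin, quotes 31 MIR159 hairpins and 0 of MIR319, and the locus of the asparagus form 54 and 0. The loci with the papaya-type inner form quote 56 MIR159 hairpins and 0 of MIR319 at 1 locus, and 57 and 2 at the other. The 2 shortest loci, those of the leading form at 31 nt and of the 5′-arm form at 34 nt, are mixed, with 71 and 70 MIR159 names and 61 of MIR319 at each. Over the member loci, 78 MIR159 hairpins of 36 species are quoted.

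The boundary with miR319 turns on 1 base. The double-named form had 4004 reads in library 1 and 3095 in library 2, which is 4.22% ± 0.094 of listed reads (SD, n = 2). It differs from the asparagus form by T7C alone. For each read of that form it had 8.82 in library 1 and 8.81 in the other. At the locus where the line named aof-miR159 places it, the genomic sequence has the base of the asparagus form, so the form differs from it by T7C. At the locus of the line named aof-miR319b it is identical to the genome. With it, the family would hold 18.7% ± 0.15 of listed reads (SD, n = 2).

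The core of the leading form, bases 3 to 18, is printed here because it separates the families, with base 7 in capitals.
core of the 3′-arm miR159 forms: tggaTtgaagggagct
core of the double-named form and of miR319: tggaCtgaagggagct
The first core stood in 3 listed sequences, all named miR159, with 14.2% ± 0.052 of listed reads. The second stood in 11, all first named miR319, with 27.5% ± 1.38 (SD, n = 2 each). All reads of the first core start 2 bases before it. The core was cut from the leading form, which holds 96.3% of these reads, so for that form the start follows from the choice of core. With the second core, 79.8% ± 1.38 of the reads start 1 base before it and 20.2% ± 1.38 start 2 bases before it (SD, n = 2 each). The double-named form has the core of miR319 and starts where the miR159 forms do. That start is not particular to miR159, since 4 sequences with the second core have it, the double-named form among them. Of their 5296.5 reads in library 1 and 4071 in library 2, the double-named form held 4004 and 3095.

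**Figure D3:**
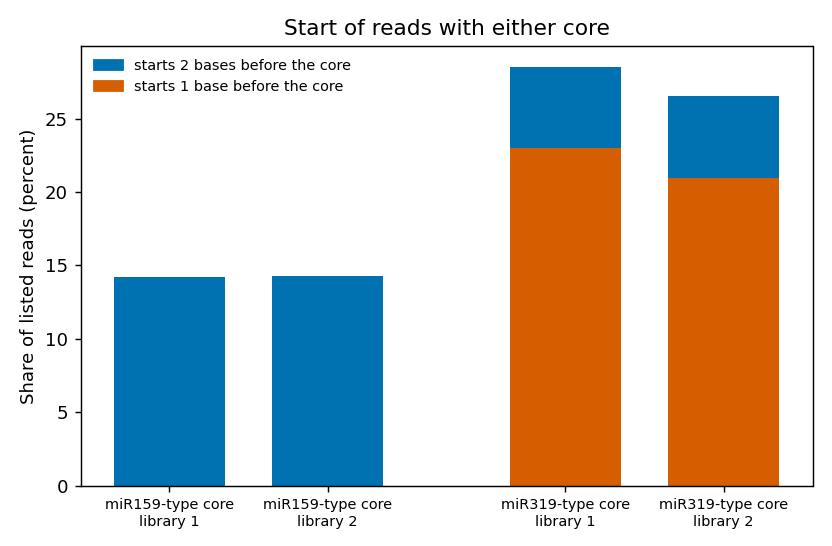
Share of listed reads that hold either core, per library, divided by whether the sequence starts 1 or 2 bases before the core. Sequences with the miR159-type core start 2 bases before it in both libraries, and those with the miR319-type core mostly 1 base before it.

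The 3 sequences of other families closest to the leading form by edit distance were all first named miR319. tae-miR319_R-1, at a distance of 2, had 11592 and 7691 reads, and bdi-MIR319a-p5, also at 2, had 918.5 and 715. The double-named form came next, at 3, a distance it shares with other miR319 sequences. Outside both families the nearest sequence with reads was at a distance of 8. With 2 libraries no likeness of levels was measured.

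The libraries were compared for each sequence by a two-sided exact binomial test on rounded reads, with Benjamini-Hochberg adjustment over all 153 sequences that reached 10 reads in both together. Of these, 20 were called at 0.05, or 13.1%. Of the 7 miR159 members 6 reached this minimum and 1 of them was called, the 5′-arm form. It held 0.0913% of listed reads in library 1 against 0.137% in the other, a log2 ratio of 0.59 (exact test, adjusted p = 0.0468). The peach-type inner form lay the other way, at 0.0954% and 0.0609%, 1.57-fold higher in library 1, and did not pass (exact test, adjusted p = 0.0918). With a single line per sequence the 5′-arm form was no longer called (exact test, adjusted p = 0.0891). The test compares these 2 libraries by their reads and says nothing of other preparations.

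The leading form was at 13.7% in both libraries (exact test, adjusted p = 0.951), a log2 ratio of 0.01. The asparagus form was at 0.471% and 0.487% (exact test, adjusted p = 0.951). The 20-nt and papaya-type inner forms were 1.35-fold and 1.34-fold higher in library 1 and were not called (exact test, adjusted p = 0.560 and 0.796). Over the 6 tested members the median difference was 1.34-fold in either direction, against 1.16-fold over the 148 tested sequences with reads in both libraries. The 2 medians were not matched for abundance. The larger differences lie in the 5′-arm, peach-type inner, 20-nt and papaya-type inner forms, with 39 to 187 reads in both libraries together. The leading and asparagus forms differed 1.01-fold and 1.03-fold.

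**Figure D4:**
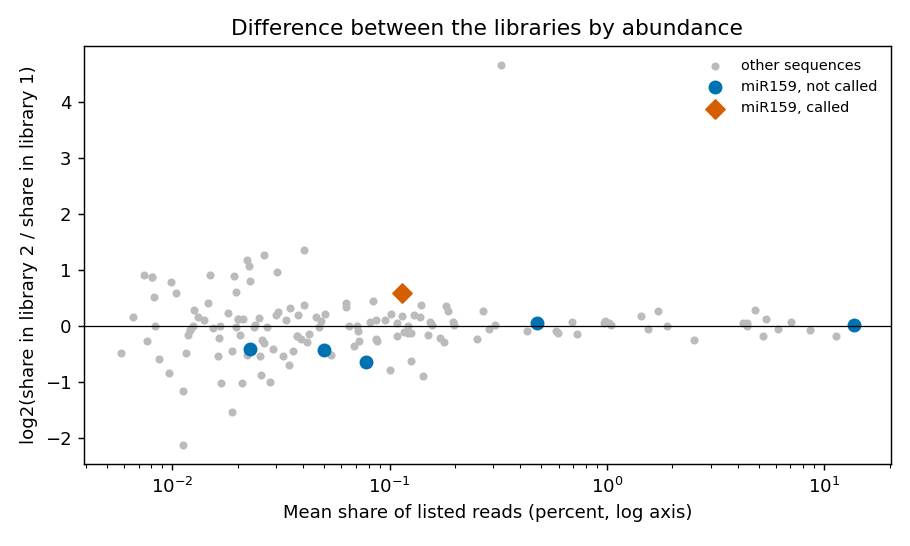
The log2 ratio of the share in library 2 to that in library 1, against the mean share (log axis), for the 148 tested sequences with reads in both libraries. The 5′-arm form, at a log2 ratio of 0.59, is the called miR159 member, and the leading form lies at 0.01 at the right.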

How the data were processed

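Small RNA of 2 turmeric nanoparticle samples was sequenced, and 1 deposited table was used. CASAVA 1.8.4 and cutadapt 1.10 appear in the submitters' processing notes, with no role stated. Reads were compared with miRBase miRNAs and hairpins of selected species, and hairpins with a genome, per the file headers. The aligner, miRBase release and assembly were not given in the sources used here. Raw columns, as deposited, are expected counts of reads per locus, in part fractional. The deposited normalized signal is the raw column times 1 factor per library, 0.508 and 0.923, so shares do not change. The hairpin score (MFEI) and free energy were computed by the authors, per the file headers. RNAfold 2.7.2 gave free energies as a check. Of the 278 lines, 12 are empty in the copy used and are not analysed here. Another 2 value columns belong to no sample of the series and were not used.

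Reads were summed over lines of the same sequence. Values were rounded to whole reads for the exact binomial test and intervals (scipy 1.17.1, Python 3.11.15), and the test was checked on simulated data. With 2 libraries, an SD has n = 2. The members, lists, alternatives and the rule for names (all members, and the 3 nearest sequences) were chosen with earlier results of these data known. Alternatives were other ways of counting lines, members, totals and the minimum of reads.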

Additional observations from a re-analysis of the deposited data

How the results depend on the processing

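With a single line per sequence the family held 11.2% of listed reads and the leading form 90.8% of the family, and 0 members were called different between the libraries by the exact binomial test, with 1 at an unadjusted p under 0.05 and 12 sequences called in the whole table in place of 20. With the double-named sequence counted under miR159 these shares were 18.7% and 73.4%. The family held 15.3% with registered names alone in the total. It held 0.65% of all listed reads without entries of 2 substitutions or unregistered arms, which drops the leading form. With the leading form left out of both the family and the total it held 0.87%, and 0.747% where the total kept all listed reads. By the core at bases 3 to 18, an alternative chosen after seeing the data, as were those without csi-miR159b-5p and with totals of registered names for the test, the family held 14.2% and the leading form 96.3% of it. These follow from how the settings are built. Normalized columns and the family without csi-miR159b-5p gave 14.5%, and the 5′-arm form stayed called without a minimum and with both other totals, at adjusted p between 0.0372 and 0.0468 by the exact binomial test. Single libraries gave 14.4% to 14.5% for the family and 94.8% to 94.9% for the leading form, which with 2 libraries says nothing of stability. Members other than the leading form rest on at most 454 reads in a library. No paired analysis was possible because the samples form a single group.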

Other observations

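Besides miR159 and miR319, miR828 and miR858 are families known to act on MYB genes, in their case mainly on regulators of phenylpropanoid and anthocyanin synthesis. All 4 families of this list had reads in both libraries. miR858 was listed with 1 sequence at 111 reads in library 1 and 73 in library 2, or 0.108% ± 0.0099 of listed reads (SD, n = 2). miR828 was listed with 1 sequence at 14 and 22 reads, or 0.022% ± 0.011 (SD, n = 2). Both lie below the 14.5% ± 0.061 of miR159 and the 27.6% ± 1.38 of miR319 in each library.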
